A study of Mus musculus with 4 samples.

Results

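The genes described here are those of MIZ-1 and the MYC/MAX network. They are *Zbtb17*, which encodes MIZ-1, the MYC family genes *Myc* and *Mycn*, their dimerization partner *Max*, and *Mxd1*, *Mxd3*, *Mxd4*, *Mxi1*, *Mnt* and *Mga*, which encode the other MAX partners. They were chosen by symbol, without use of measured values, and matched by Ensembl identifier to the GENCODE annotation of GRCm38 (mm10). This gave 10 of the 41214 genes in the count table, and 9 of them were among the 14554 genes with enough counts for a test. The study asked how loss of the POZ domain of MIZ-1 alters gene expression in splenic B cells. RNA-seq was done on unstimulated B220+ splenocytes from MIZ-1WT and MIZ-1ΔPOZ mice, with 2 libraries per genotype described as biological duplicates. In MIZ-1ΔPOZ mice a floxed allele (*Miz-1 floxPOZ*) was recombined by *MB1-Cre*, which is driven by the promoter of the B cell gene *Cd79a*, so that B cells make a MIZ-1 protein without the POZ domain but with its DNA-binding zinc fingers. Both groups were young adult mice on a C57BL/6 background, and B220+ cells were taken by positive selection on magnetic beads. Whether the MIZ-1WT mice carried Cre, and how many mice went into each library, was not given in the sources used here.

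MYC is a basic helix-loop-helix leucine zipper protein that binds DNA only as a dimer with MAX, mostly at a short sequence called the E-box, and activates genes of growth and biosynthesis. MXD proteins, MNT and MGA also pair with MAX, bind the same sequences and mostly repress, so that the network balances activators and repressors that share MAX. MIZ-1 is a zinc finger transcription factor that activates its own targets and that MYC/MAX can convert into a repressor, as known for the cell cycle inhibitor genes *Cdkn2b* and *Cdkn1a*. Resting B cells hold little MYC, and antigen and T cell help raise it.

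The sequence that the network binds stood in some of its own promoters. Windows from 250 bases before to 50 after annotated starts (RefSeq, GRCm38.p6) were searched on both strands for the canonical E-box CACGTG, which reads the same on both strands, and for the variant CACGCG. Of the 10 genes, 9 had a window, all but *Myc*, which was not searched, with 12 windows in all. The canonical E-box stood in the windows of 3 of them, *Max*, *Mnt* and *Mxd4*, against 8.09% of the 27025 genes with a window (7.15% of 32851 windows). The variant stood in the window of *Mga* alone, against 10.5% of genes (9.27% of windows), and no member had both. The 4 sites are shown because they show which of the searched genes carry the network's own sequence, with the match in capitals and each read 5′ to 3′ on the strand of its gene.
*Max*, chr12:76962234-76962263, minus strand, at the annotated start: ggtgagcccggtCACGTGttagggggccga
*Mnt*, chr11:74830789-74830818, plus strand, 120 bases upstream of the start: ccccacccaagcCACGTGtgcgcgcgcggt
*Mxd4*, chr5:34187912-34187941, minus strand, 216 bases upstream of the start: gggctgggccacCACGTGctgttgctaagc
*Mga*, chr2:119897195-119897224, plus strand, 18 bases upstream of the start, where the variant is read on the opposite strand: agctggtaggagCGCGTGcgcagtgacgtg
A match is a description of the letters and not a measured binding site. In RNA level the 4 genes did not move as a group, since *Mnt* and *Mga* were lower in MIZ-1ΔPOZ while *Max* and *Mxd4* did not pass the test, with values below.

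Gene counts per library lay between 43026814 and 46387209. Levels are given as CPM, which scales the counts of each library to the same total after TMM correction. Differences are log2 fold changes of MIZ-1ΔPOZ over MIZ-1WT with their standard error (SE), and adjusted p-values are those of the quasi-likelihood test in edgeR, corrected over all tested genes by the Benjamini-Hochberg method. An adjusted p under 0.05 was called a change. The genotypes also differed in sex-linked RNA. *Xist* had 49 and 60 counts in MIZ-1WT and 38145 and 40838 in MIZ-1ΔPOZ, and 4 Y-linked genes were lower in MIZ-1ΔPOZ, among them *Ddx3y* with 15840 and 14896 against 680 and 622 counts. Sex and genotype therefore cannot be told apart in any of the values here, although none of the 10 genes lies on a sex chromosome.

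Of the 9 tested members, *Myc* and *Mxd3* were higher in MIZ-1ΔPOZ, *Zbtb17*, *Mnt* and *Mga* were lower, and *Max*, *Mxd1*, *Mxd4* and *Mxi1* did not pass. Over all 14554 tested genes, 21.1% were higher and 18.9% were lower, 40.0% in all. Beside that share, 5 of 9 is no result about the network as such, and the count was 2 without MIZ-1WT replicate 1 and 2 without MIZ-1WT replicate 2. The methods of the study give a limit of 0.6 up or down on the log2 scale and a p limit of 0.05 whose sign is printed the other way, read here as an unadjusted p under 0.05. By these limits 1 member passed, *Mxd3*, against 20.3% of all tested genes. The values of the genotypes did not overlap for 8 of the 9 members, against 74.8% of all tested genes. For the members the median log2 fold change was -0.01, with quartiles at -0.17 and 0.11, and that of all tested genes was -0.01, with quartiles at -0.23 and 0.33.

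**Figure D1:**
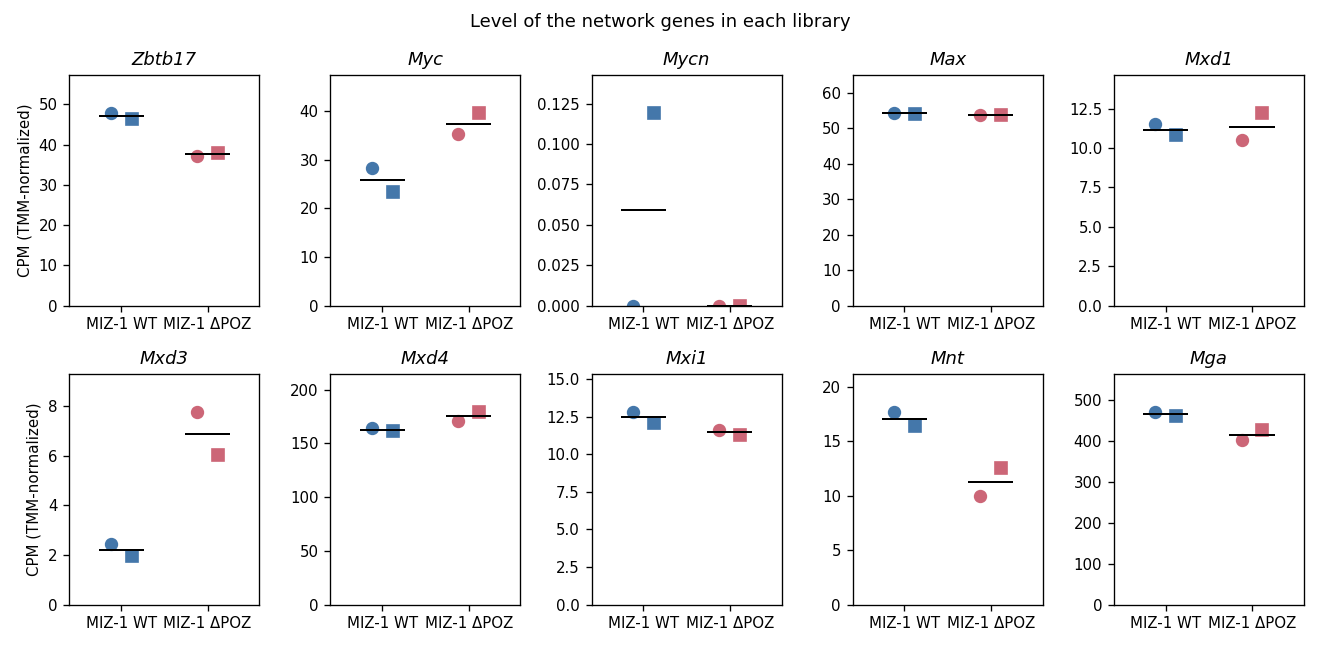
Level of each of the 10 genes in CPM (linear axes from 0, each with its own scale) in the MIZ-1WT libraries (blue) and the MIZ-1ΔPOZ libraries (red), with circles for replicate 1, squares for replicate 2 and a line at the mean of the genotype. *Mxd3* and *Myc* sit higher and *Zbtb17*, *Mnt* and *Mga* lower in both MIZ-1ΔPOZ libraries, *Mxd1* overlaps between genotypes, and *Mycn* has counts in 1 library.

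*Zbtb17* (ENSMUSG00000006215, chr4:141444654-141467930, plus strand) is the gene whose POZ exons were floxed. Its level was 47.8 and 46.3 CPM in the MIZ-1WT libraries and 37.3 and 38.0 CPM in the MIZ-1ΔPOZ libraries. The genotypes did not overlap, and the replicates of each lay close together. From 47.1 ± 1.09 CPM (SD, n = 2) it fell by 20.0% to 37.7 ± 0.533 CPM (SD, n = 2), a log2 fold change of -0.32 (SE 0.06, 95% interval -0.46 to -0.18, adjusted p = 0.00857). Without MIZ-1WT replicate 1 the difference was -0.30 with an adjusted p of 0.0696. Counts were summed over all exons of the gene, 3877 bases in all. They do not tell transcripts with the POZ exons from those without, and they are no check of the deletion. Recombined transcripts give no reads from the deleted exons, so fewer reads per transcript and fewer transcripts cannot be told apart in the 20.0% fall. In bulk RNA, fewer cells of a type and less RNA per cell cannot be told apart, here and for every gene below. *Spen*, a transcriptional corepressor gene on the opposite strand that shares 41 exon bases with *Zbtb17*, was also lower, with a log2 fold change of -0.44 (adjusted p = 0.0197), and the strand setting of the counting was not given in the sources used here.

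Among the 12291 tested protein-coding genes compared, those whose pattern over the 4 libraries was most like that of *Zbtb17* included *Pcgf3* and *Ptcd1*. Their distances, taken between log2 CPM values centred on each gene's mean, were 0.00156 and 0.0148. Their log2 fold changes were -0.32 and -0.33. With 4 libraries such a distance describes little beyond a difference of the same size between the genotypes.

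*Myc* (ENSMUSG00000022346, chr15:61985391-61990374, plus strand), the activator of the network, was higher in MIZ-1ΔPOZ. It had 1228 and 984 counts, or 28.2 and 23.4 CPM, in MIZ-1WT, and 1675 and 1733 counts, or 35.2 and 39.5 CPM, in MIZ-1ΔPOZ. The lowest MIZ-1ΔPOZ library stood above the highest MIZ-1WT library, though the replicates of *Myc* differed more than those of *Zbtb17*. The means were 25.8 ± 3.35 CPM and 37.3 ± 3.04 CPM (SD, n = 2 each), a 1.45-fold rise with a log2 fold change of 0.53 (SE 0.11, 95% interval 0.26 to 0.80, adjusted p = 0.0139). Leaving out MIZ-1WT replicate 2, the library with the least *Myc*, brought the difference to 0.41 with an adjusted p of 0.0624. *Pvt1*, the long non-coding RNA gene next to *Myc*, had a log2 fold change of 0.15 that did not pass the test (adjusted p = 0.228).

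*Mycn* (ENSMUSG00000037169, chr12:12936093-12941914, minus strand), the family member best known from embryonic and neural tissue, was close to absent. It had 5 counts in MIZ-1WT replicate 2, or 0.119 CPM, and 0 counts in the other 3 libraries, where a count of 0 allows a level of up to 0.0630 to 0.0688 CPM (3 counts, for counting error only). It was not tested, and no difference was detectable at this depth.

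*Max* (ENSMUSG00000059436, chr12:76937269-76962201, minus strand), the shared partner of the MYC, MXD, MNT and MGA proteins, had the steadiest level of the network. It stood at 54.2 and 54.1 CPM in MIZ-1WT and at 53.8 and 53.7 CPM in MIZ-1ΔPOZ. The genotypes did not overlap, although all 4 values lay between 53.7 and 54.2 CPM. The log2 fold change was -0.01 (SE 0.05, adjusted p = 0.884), and its 95% interval from -0.13 to 0.11 leaves room for a small difference either way. Its sign was not stable, as it was positive under upper-quartile scaling and without MIZ-1ΔPOZ replicate 2.

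The MXD family, which represses as dimers with MAX through the SIN3 corepressor, was uneven. *Mxd3* (ENSMUSG00000021485, chr13:55325168-55329823, minus strand), which is known to be expressed in S phase of proliferating cells while its relatives mark cells leaving the cycle, had the largest difference of the 9 members. Its counts were 107 and 82 in MIZ-1WT and 370 and 264 in MIZ-1ΔPOZ, or 2.45 and 1.95 CPM against 7.77 and 6.02 CPM. Both MIZ-1ΔPOZ libraries stood far above both MIZ-1WT libraries, and the MIZ-1ΔPOZ replicates also differed from each other. The means were 2.20 ± 0.355 CPM and 6.89 ± 1.24 CPM (SD, n = 2 each), a 3.13-fold rise with a log2 fold change of 1.65 (SE 0.20, 95% interval 1.14 to 2.15, adjusted p = 0.00321). It is the only member that passed in every one of the 9 alternatives tried, between 1.45 and 1.83 with each library left out in turn. *Prelid1* shares 105 exon bases with *Mxd3* on the opposite strand and did not move with it, at a log2 fold change of 0.02 (adjusted p = 0.792).

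The remaining MXD genes did not pass the test. *Mxd4* (ENSMUSG00000037235, chr5:34173883-34187720, minus strand), the most abundant of them, had 164 and 161 CPM in MIZ-1WT and 171 and 179 CPM in MIZ-1ΔPOZ. The groups did not overlap, and the log2 fold change of 0.11 (SE 0.05, 95% interval -0.01 to 0.23) missed the threshold with an adjusted p of 0.120. An antisense gene, *Gm42846*, shares 514 exon bases with *Mxd4*, so that part of its counts is uncertain. *Mxd1* (ENSMUSG00000001156, chr6:86647042-86669161, minus strand), known for its rise in cells that stop dividing, had 11.5 and 10.8 CPM in MIZ-1WT and 10.5 and 12.2 CPM in MIZ-1ΔPOZ. It was the only tested member whose genotypes overlapped, with a log2 fold change of 0.03 (SE 0.11, 95% interval -0.25 to 0.30, adjusted p = 0.875) that turned negative without MIZ-1WT replicate 2 and without MIZ-1ΔPOZ replicate 2. *Mxi1* (ENSMUSG00000025025, chr19:53310518-53375810, plus strand), which encodes the relative also called MXD2, had 12.8 and 12.1 CPM in MIZ-1WT and 11.6 and 11.3 CPM in MIZ-1ΔPOZ. The values did not overlap, and the log2 fold change was -0.12 (SE 0.09, 95% interval -0.34 to 0.10, adjusted p = 0.324). *Gm10197*, annotated on the strand opposite *Mxi1* with 194 shared exon bases, had 0 counts in all 4 libraries.

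*Mnt* (ENSMUSG00000000282, chr11:74830920-74845725, plus strand) encodes a broadly expressed repressor that pairs with MAX and holds MYC targets down. It was lower in MIZ-1ΔPOZ. Counts were 772 and 688 in MIZ-1WT and 473 and 552 in MIZ-1ΔPOZ, or 17.7 and 16.4 CPM against 9.94 and 12.6 CPM. The highest MIZ-1ΔPOZ library lay below the lowest MIZ-1WT library. The mean fell by 34.0%, from 17.0 ± 0.939 CPM to 11.3 ± 1.87 CPM (SD, n = 2 each), with a log2 fold change of -0.60 (SE 0.13, 95% interval -0.92 to -0.27, adjusted p = 0.0170). Before rounding this was just short of the study's limit of 0.6. The call was lost without MIZ-1WT replicate 1 (-0.54, adjusted p = 0.107) and without MIZ-1WT replicate 2 (-0.65, adjusted p = 0.0653).

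*Mga* (ENSMUSG00000033943, chr2:119897228-119969581, plus strand) encodes a very large protein with a T-box and a MAX-binding domain, and serves as scaffold of the Polycomb complex PRC1.6. Its level was 471 and 461 CPM in MIZ-1WT and 403 and 426 CPM in MIZ-1ΔPOZ. The genotypes did not overlap, with a mean that fell by 11.1% from 466 ± 7.33 CPM to 414 ± 16.4 CPM (SD, n = 2 each). The log2 fold change of -0.17 (SE 0.05, 95% interval -0.29 to -0.05) had an adjusted p of 0.0424, closest to the threshold of the 5 calls. It did not pass under upper-quartile scaling (-0.15, adjusted p = 0.0789), nor without MIZ-1WT replicate 1 (-0.15, adjusted p = 0.208), MIZ-1WT replicate 2 (-0.19, adjusted p = 0.143) or MIZ-1ΔPOZ replicate 1 (-0.13, adjusted p = 0.118).

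**Figure D2:**
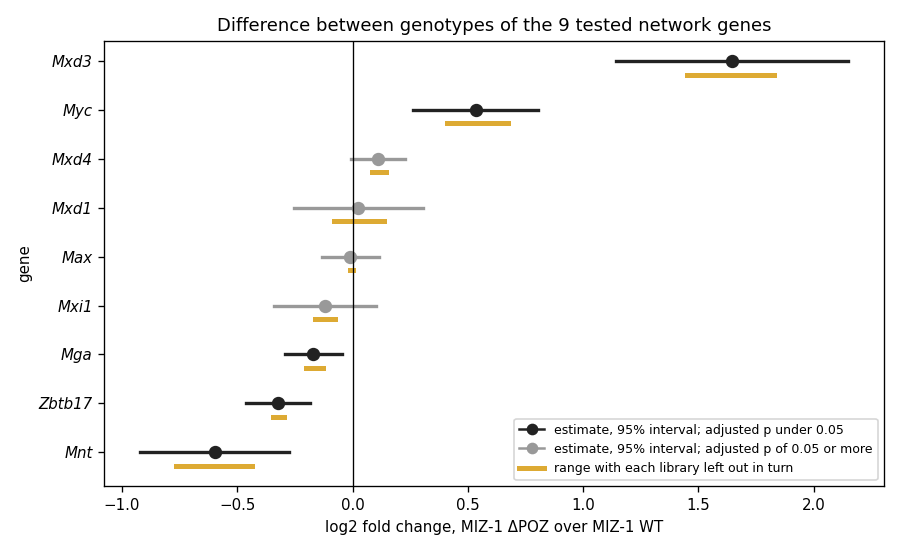
Log2 fold change of MIZ-1ΔPOZ over MIZ-1WT for the 9 tested genes with 95% intervals, in black where the adjusted p was under 0.05 and in grey otherwise, and yellow bars for the range with each library left out in turn. *Mxd3* at 1.65 stands apart from the other members, which lie between -0.60 and 0.53.

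Levels of different genes were compared as CPM per kilobase of exon. The length was that of the merged exons of all annotated transcripts of a gene, which need not match the transcripts expressed. The order, shares and ratios below rest on these lengths. In MIZ-1WT the order of the means was *Mga* at 30.4, *Mxd4* at 19.1, *Max* at 15.0, *Zbtb17* at 12.1, *Myc* at 9.49, *Mnt* at 3.68, *Mxi1* at 1.82, *Mxd1* at 1.58 and *Mxd3* at 0.930 CPM per kilobase. No neighbours in this order overlapped between the libraries of MIZ-1WT. In MIZ-1ΔPOZ the order was *Mga* at 27.0, *Mxd4* at 20.6, *Max* at 14.9, *Myc* at 13.7, *Zbtb17* at 9.71, *Mxd3* at 2.91, *Mnt* at 2.43, *Mxi1* at 1.68 and *Mxd1* at 1.61 CPM per kilobase. *Myc* thus stood below *Zbtb17* in MIZ-1WT and above it in MIZ-1ΔPOZ, and *Mxd3* moved from the lowest place to the range of *Mnt*. The full *Zbtb17* length was used in both genotypes, here and in the ratios below, although recombined transcripts lack the deleted exons. In MIZ-1ΔPOZ, *Mxd3* overlapped *Mnt*, and *Mxi1* overlapped *Mxd1*, so the order within these pairs does not exceed the spread between libraries.

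**Figure D3:**
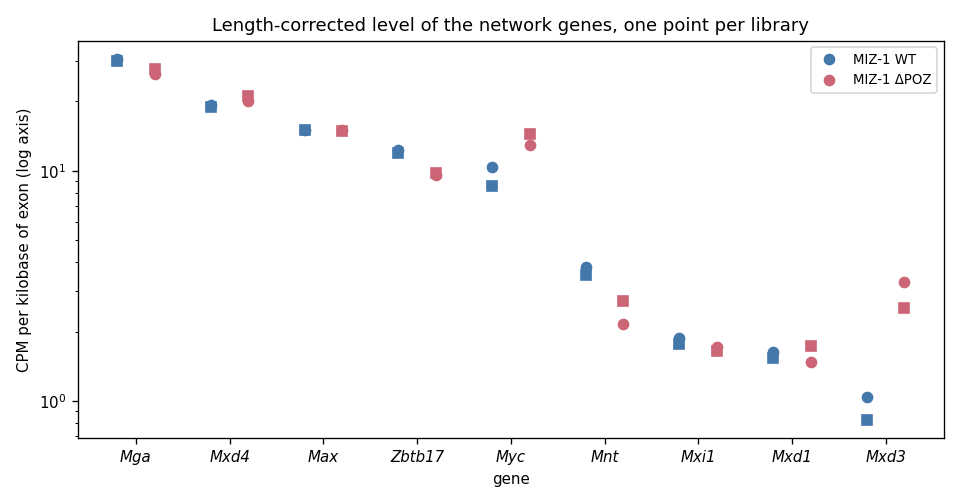
Length-corrected level (CPM per kilobase of exon, log axis) of the 9 tested genes in each library, MIZ-1WT in blue and MIZ-1ΔPOZ in red, circles for replicate 1 and squares for replicate 2, in the order of the MIZ-1WT means. *Mga*, *Mxd4*, *Max*, *Zbtb17* and *Myc* stand above the other 4 genes in both genotypes, and *Mxd3* moves from 0.930 to 2.91.

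Summed over the 4 MXD genes, the level was 23.9 and 23.1 CPM per kilobase in MIZ-1WT and 26.6 and 27.1 in MIZ-1ΔPOZ. *Mxd4* made up 81.0% and 82.1% of this sum in MIZ-1WT and 75.7% and 78.1% in MIZ-1ΔPOZ, and *Mxd3* 4.34% and 3.57% against 12.3% and 9.38%. Even after its rise *Mxd3* was a small part of the MXD RNA. Adding *Mnt* and *Mga* gave 58.4 and 56.6 CPM per kilobase in MIZ-1WT and 55.0 and 57.6 in MIZ-1ΔPOZ, which overlap. The ratio of these 6 repressor genes to *Myc* and *Mycn* was 5.64 and 6.55 in MIZ-1WT and 4.25 and 3.96 in MIZ-1ΔPOZ, and that of *Max* to the MYC genes was 1.45 and 1.74 against 1.16 and 1.03. For *Zbtb17* over the MYC genes the ratio was 1.19 and 1.38 in MIZ-1WT and 0.742 and 0.675 in MIZ-1ΔPOZ. None of these ratios overlapped between genotypes, and all 3 have the MYC genes as denominator. They are ratios of RNA and were given no test.

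Genes that act with the network were described by lists, each with its count past the same threshold and its median, beside 21.1% higher and 18.9% lower over all genes. Of 32 genes commonly cited as induced by MYC, all tested, 15 were higher and 2 lower in MIZ-1ΔPOZ, 28 had a positive log2 fold change, and the median was 0.22. The mitochondrial folate enzyme genes *Mthfd2* (19.1 and 17.3 against 31.9 and 31.5 CPM, log2 fold change 0.80, adjusted p = 0.00175) and *Shmt2* (46.4 and 46.1 against 67.8 and 63.4 CPM, 0.50, adjusted p = 0.00258) rose. The 2 that fell were *Tfrc*, the transferrin receptor (-0.28, adjusted p = 0.0116), and *Nop56*, a protein of ribosomal RNA processing (-0.20, adjusted p = 0.0169). Both missed the threshold when either MIZ-1WT library was left out (adjusted p from 0.0713 to 0.133), and the count of the list was 6 without MIZ-1WT replicate 1 and 5 without MIZ-1WT replicate 2, when the fit had 1 residual degree of freedom.

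The 13 MIZ-1 target genes named in the text of the study, which discusses these samples and so is not independent evidence of direction, gave 10 tested genes, 3 higher and 2 lower, with a median of 0.17. *Kdm8*, a JmjC-domain hydroxylase gene, had 13.3 and 12.2 CPM in MIZ-1WT and 39.6 and 40.8 CPM in MIZ-1ΔPOZ, a log2 fold change of 1.66 (adjusted p = 0.000732). *Bcl2*, which blocks apoptosis, went from 163 and 164 CPM to 202 and 206 CPM (0.32, adjusted p = 0.00380). *Rpl22*, a ribosomal protein gene with processed copies that make its counts uncertain, went from 548 and 573 CPM to 277 and 276 CPM (-1.02, adjusted p = 0.000732). All 3 stood well apart between genotypes. The peroxisomal import gene *Pex13* was lower (-0.36, adjusted p = 0.0121), but not when MIZ-1WT replicate 1 (adjusted p = 0.0841) or replicate 2 (adjusted p = 0.0590) was left out. The list had 3 genes past the threshold without MIZ-1WT replicate 1 and 3 without MIZ-1WT replicate 2. *Cdkn1a*, a classical MIZ-1 target, was at a low level of 0.138 and 0.262 CPM in MIZ-1WT and 0.336 and 0.114 CPM in MIZ-1ΔPOZ. *Cdkn2b*, the other inhibitor gene known to be repressed by MYC through MIZ-1, stood at 0.115 and 0.238 CPM against 0.441 and 0.114 CPM. Both overlapped between genotypes and did not pass the test (adjusted p = 0.833 and 0.508).

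Among 15 MIZ-1 partner proteins 4 were higher and 3 lower, with a median of -0.15. *Bcl6*, the germinal center repressor that binds MIZ-1, had 114 and 105 CPM in MIZ-1WT and 42.7 and 43.0 CPM in MIZ-1ΔPOZ, a log2 fold change of -1.36 (adjusted p = 0.000682). The acetyltransferase gene *Ep300* was also lower (191 and 173 against 111 and 130 CPM, -0.59, adjusted p = 0.00573). The signal transducer *Smad3* (47.4 and 43.3 against 70.2 and 76.7 CPM, 0.70, adjusted p = 0.00211) and the kinase gene *Akt1* (0.47, adjusted p = 0.00297) were higher.

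The cofactors of the MAX dimers included genes that passed in both directions. Of 20 SIN3 and NCoR corepressor subunits, which MXD and MNT recruit, 1 was higher and 8 lower (median -0.16). The higher gene was the histone chaperone *Rbbp7* (0.37, adjusted p = 0.00300), and the lower genes included *Arid4b* (202 and 199 against 138 and 152 CPM, -0.47, adjusted p = 0.00333) and *Ing1* (-0.29, adjusted p = 0.0115). Of 17 MYC coactivators and chromatin partners 1 was higher and 7 lower (median -0.20), among them the chromatin remodeler *Bptf* (315 and 309 against 219 and 239 CPM, -0.45, adjusted p = 0.00336) and the elongation cyclin *Ccnt1* (-0.26, adjusted p = 0.00650), with the helicase *Ruvbl1* higher (0.23, adjusted p = 0.0287). Of the 11 other subunits of PRC1.6, the complex around MGA, 3 were higher and 4 lower (median -0.03). *Tfdp1*, the E2F dimer partner, had 16.1 and 14.7 CPM in MIZ-1WT and 31.0 and 30.1 CPM in MIZ-1ΔPOZ (0.99, adjusted p = 0.00117), and the chromobox gene *Cbx3* was higher too (0.26, adjusted p = 0.0129). The ubiquitin ligase *Rnf2* (133 and 128 against 99.3 and 85.1 CPM, -0.50, adjusted p = 0.00655) and *Tfdp2* (-0.41, adjusted p = 0.00877) were lower. *Ing1*, *Ccnt1*, *Ruvbl1* and *Cbx3* missed the threshold when either MIZ-1WT library was left out (adjusted p from 0.0577 to 0.146), and *Ruvbl1* also without MIZ-1ΔPOZ replicate 1 (adjusted p = 0.105). *Rnf2* missed it without MIZ-1WT replicate 1 (adjusted p = 0.0554), and *Tfdp2* missed it without MIZ-1WT replicate 2 (adjusted p = 0.0617). Without MIZ-1WT replicate 1 the 3 lists had 2, 1 and 2 genes past the threshold, and without MIZ-1WT replicate 2 they had 4, 2 and 2. The PRC1.6 list had 4 without MIZ-1ΔPOZ replicate 1.

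Of the 16 tested genes that set the stability of MYC protein, 3 were higher and 6 lower (median -0.14). *Aurka*, a mitotic kinase that shields MYC proteins from degradation, had 6.53 and 6.83 CPM in MIZ-1WT and 19.5 and 15.8 CPM in MIZ-1ΔPOZ (1.40, adjusted p = 0.00161). *Skp2*, a ubiquitin ligase subunit that acts on MYC in S phase entry, had 10.8 and 11.5 against 24.9 and 19.6 CPM (1.00, adjusted p = 0.00385). Both also rise with the cell cycle as background, and both stood apart between genotypes. The deubiquitinase *Usp37* was lower (-0.25, adjusted p = 0.0110), but missed the threshold without MIZ-1WT replicate 1 (adjusted p = 0.0992) or replicate 2 (adjusted p = 0.0722). The list had 2 genes past the threshold without MIZ-1WT replicate 1, 2 without MIZ-1WT replicate 2 and 5 without MIZ-1ΔPOZ replicate 1.

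The MLX branch, a parallel network that responds to glucose, had 4 tested genes, 1 higher and 3 lower (median -0.25). *Mlxip*, which encodes the glucose sensor MondoA, had 88.5 and 83.9 CPM in MIZ-1WT and 56.2 and 64.5 CPM in MIZ-1ΔPOZ (-0.51, adjusted p = 0.00572). Its target *Txnip*, an inhibitor of glucose uptake, was lower (-0.29, adjusted p = 0.0210), and *Arrdc4*, of the same arrestin family, was higher at a low level (2.61 and 1.78 against 3.82 and 3.74 CPM, 0.78, adjusted p = 0.0383). *Txnip* missed the threshold without MIZ-1WT replicate 1 (adjusted p = 0.106) or replicate 2 (adjusted p = 0.0956), and *Arrdc4* without MIZ-1WT replicate 2, MIZ-1ΔPOZ replicate 1 or MIZ-1ΔPOZ replicate 2 (adjusted p from 0.0606 to 0.150). The list had 1 to 3 genes past the threshold with each library left out in turn, fewest without MIZ-1WT replicate 2. Of 8 tested genes for other MYC family and E-box proteins, 2 were higher and 1 lower (median -0.04). The 2 were *Mitf* (2.50 and 2.55 against 7.21 and 4.78 CPM, 1.25, adjusted p = 0.0101) and *Tfec* (1.54 and 3.38 against 9.08 and 5.72 CPM, 1.59, adjusted p = 0.0256), lysosome and pigment regulators that macrophages are known to express. *Tfeb* was lower (-0.17, adjusted p = 0.0358). *Mitf* missed the threshold without MIZ-1WT replicate 1 (adjusted p = 0.0692) or replicate 2 (adjusted p = 0.0591), and *Tfec* without MIZ-1WT replicate 1 (adjusted p = 0.0884). *Tfeb* missed it when either MIZ-1WT library or MIZ-1ΔPOZ replicate 1 was left out (adjusted p from 0.0674 to 0.227), under upper-quartile scaling (adjusted p = 0.0621) and by DESeq2's Wald test (adjusted p = 0.0673). The count of these E-box genes was 0 without MIZ-1WT replicate 1, 1 without MIZ-1WT replicate 2 and 2 without MIZ-1ΔPOZ replicate 1.

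**Figure D4:**
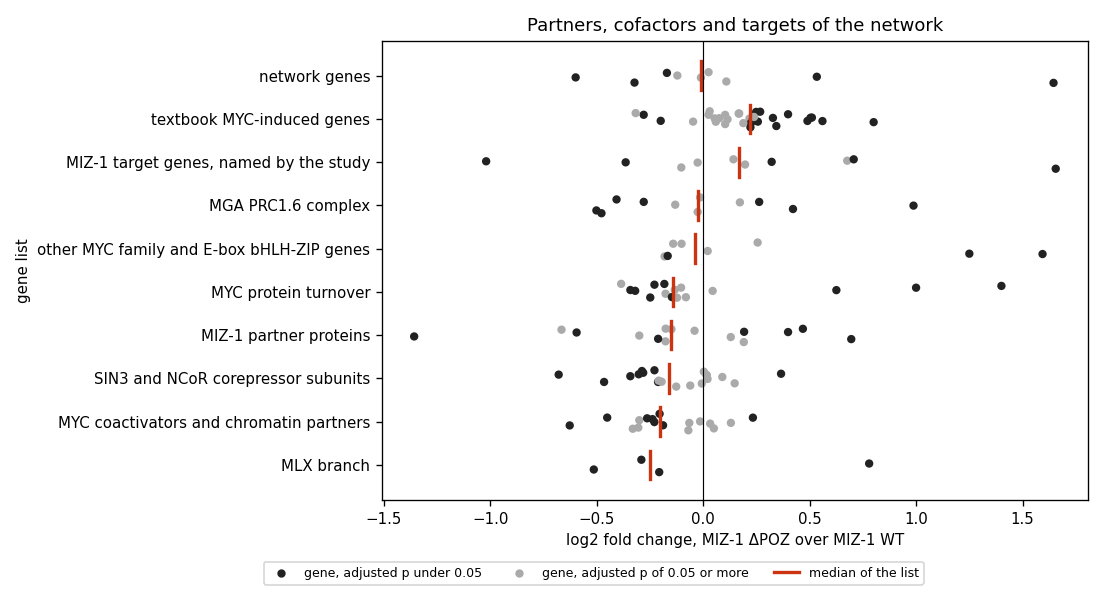
Log2 fold change of MIZ-1ΔPOZ over MIZ-1WT for each tested gene (points, black where the adjusted p was under 0.05, spread vertically for visibility) of the network and of the 9 lists of partners, cofactors and targets, with a red line at the median of each list. The MYC-induced genes center at 0.22, and the corepressor, coactivator and MLX lists below 0.

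RNA of marker genes for cell types and states differed between genotypes, and these values stand beside the members' results. All 10 pan-B cell markers were detected, and their summed level was 13500 and 13800 CPM in MIZ-1WT and 11200 and 11500 CPM in MIZ-1ΔPOZ, with 8 of 10 lower and none higher. Among the lower was *Cd79a* (336 and 311 against 103 and 135 CPM), whose promoter drives *MB1-Cre* in MIZ-1ΔPOZ mice. The study reports lower *Cd79a* RNA without a loss of CD79A protein. The parts of the Cre allele and of B cell content in the *Cd79a* fall were not tested. All 12 markers of cycling cells were higher in MIZ-1ΔPOZ, with a median log2 fold change of 1.95 and a summed level of 494 and 484 CPM against 1380 and 1200 CPM. All 14 macrophage markers were higher as well, with a median of 1.98 and sums of 946 and 1260 CPM against 5610 and 3540 CPM. Of the B cell states, 7 of 7 marginal zone markers (sums of 966 and 940 against 1480 and 1600 CPM), 6 of 6 germinal center markers (40.2 and 54.6 against 243 and 191 CPM) and 6 of 7 plasma cell markers (742 and 1070 against 2500 and 2330 CPM) were higher. Of 6 tested follicular markers, 3 were lower and 1 was higher, *Cr2* (log2 fold change 0.25, adjusted p = 0.0282). *Cr2* encodes CD21, by which the study gated marginal zone B cells as high and follicular B cells as medium or low. T cell markers (2 of 10 higher, 31.9 to 44.5 against 53.8 to 55.4 CPM), NK cell (1 of 6 higher), dendritic cell (3 of 9 higher), neutrophil (1 of 5 tested higher) and erythroid markers (0 of 7 past the threshold) included fewer calls, and no listed marker in the table had 0 counts in all 4 libraries.

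*Mxd3* was highest in MIZ-1ΔPOZ replicate 1, which also had the highest sums of the cycling, macrophage and germinal center markers. In MIZ-1WT it was higher in replicate 1 (2.45 against 1.95 CPM), where the cycling sum was higher but the macrophage and germinal center sums were lower than in replicate 2. *Myc* was highest in MIZ-1ΔPOZ replicate 2, and in MIZ-1WT it was, like *Mxd3*, higher in replicate 1. *Aurka*, *Skp2*, *Mitf* and *Tfec* had the order of *Mxd3* in MIZ-1ΔPOZ, with replicate 1 above replicate 2, and the opposite order in MIZ-1WT. *Mnt* and *Mga* were lowest in MIZ-1ΔPOZ replicate 1. The part of cell makeup in the differences of *Zbtb17*, *Myc*, *Mxd3*, *Mnt* and *Mga* was not tested.

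**Figure D5:**
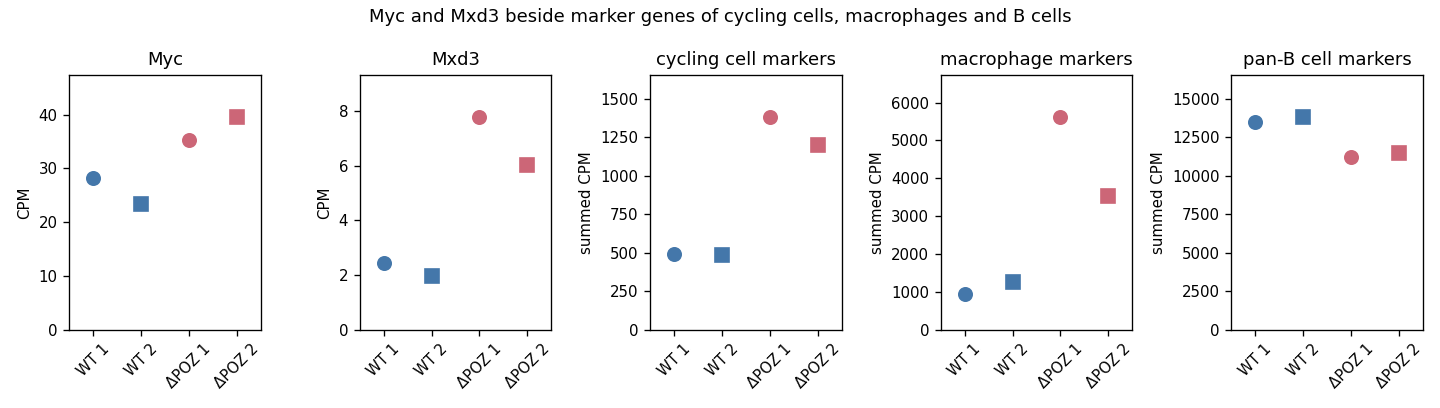
CPM of *Myc* and *Mxd3* beside the summed CPM of markers of cycling cells, macrophages and B cells in each library (linear axes from 0, MIZ-1WT in blue, MIZ-1ΔPOZ in red, circles for replicate 1 and squares for replicate 2). *Mxd3* and the cycling and macrophage sums are highest in MIZ-1ΔPOZ replicate 1, *Myc* is highest in MIZ-1ΔPOZ replicate 2, and the pan-B cell sum is lower in both MIZ-1ΔPOZ libraries.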

How the data were processed

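RNA-seq of B220+ splenocytes was analysed in 4 libraries, 2 per genotype, grouped by the genotype in their labels. The authors depleted ribosomal RNA, made stranded paired-end libraries, trimmed reads with Trimmomatic, mapped them to mm10 (GRCm38) with TopHat2 (version 2.1.0 in the submitters' processing notes) and counted them on Ensembl genes with HTSeq. They deposited these raw counts, not normalized and not pooled. The strand setting and Ensembl release were not given in the sources used here. Reads without a unique alignment (42.84% to 44.15% of the table), outside genes or ambiguous (0.281% to 0.302%) entered neither library sizes nor tests. The share outside genes was 27.18% and 25.48% in MIZ-1WT and 21.65% and 21.13% in MIZ-1ΔPOZ.

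Identifiers were given symbols, positions and exon lengths from GENCODE (40340 of 41214 matched). The 14554 genes that reached 10 counts in 2 or more libraries were fitted with edgeR 4.0.16 in R 4.3.3 (TMM, quasi-likelihood test, no covariate, common dispersion 0.00848), with Benjamini-Hochberg adjustment over all of them. The study's text names DESeq in one place and DESeq2 in another, and DESeq2 1.42.0 was an alternative, as were DESeq2's size factors, upper-quartile factors, no filter, a replicate block and leaving out each library. Replicates differed beyond sampling noise (chi-square per degree of freedom 9.79 in MIZ-1WT and 21.9 in MIZ-1ΔPOZ), so none was counted as a duplicate. All 10 network genes are named, and in each list up to 2 rising and 2 falling genes of lowest p that passed and did not overlap between genotypes. Some genes that meet this rule are not reported here. For *Zbtb17*, genes of like pattern were sought among the 3 nearest. *Cdkn1a* and *Cdkn2b* were added after their values were seen. The members, lists and tests were chosen with earlier results of these data known. *Hcfc1*, *Huwe1* and *Npm1* stand in 2 lists each. Fits were tested on simulated data with 200 changed genes among 14554, where all genes were given the same dispersion. There edgeR recovered 53% of the 1.5-fold and 84% of the 2-fold changes, with 7 false calls. DESeq2 recovered 43% and 73%, with 3 false calls. In the data 5822 genes were called and the spread differed between genotypes, so these rates need not carry over.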

Additional observations from a re-analysis of the deposited data

How the results depend on the processing

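Of 81 refits of the 9 tested members (9 alternatives each), 68 kept the direction and side of the threshold, 9 kept the direction but lost the call, and 4 reversed, all of these for genes that were never called. *Max* was 0.0140 under upper-quartile factors, and with each library left out it ranged from -0.0129 to 0.0018 and *Mxd1* from -0.0794 to 0.1347. Against 5 members, 68 list genes and 5822 genes past the threshold, leaving out each library, with 1 residual degree of freedom and the lone library assumed to vary like the other genotype, gave 2 to 5 members, 22 to 69 list genes and 2204 to 5739 genes, fewest without MIZ-1WT replicate 1. The replicate numbers were shared between genotypes, but the labels do not say whether they pair the libraries. The correlation of replicate differences between genotypes was -0.0688, which cannot decide whether they do. With the replicate block 4 members, 53 list genes and 4732 genes passed, *Mga* no longer (adjusted p = 0.0866), and of the MYC coactivators 4 in place of 8. Among the genes named from the lists, *Ruvbl1* and *Tfeb* also missed the threshold with the block. At the study's limits 1 member passed, against 2 with no filter, 2 with the replicate block and 2 with each library left out, where *Mnt* or *Myc* joined *Mxd3*. Upper-quartile factors left 5676 genes, DESeq2's size factors 5818, DESeq2's Wald test 5082 and no filter 5952, and 51.7% to 57.9% of these calls were higher in MIZ-1ΔPOZ. With 2 libraries per genotype, differences as small as that of *Mga* lie at the edge of what the spread between libraries lets the test call.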
